A study of Mus musculus with 8 samples.

Results

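The collagen gene family of the mouse was followed in lactating mammary glands with and without Th-POK. Its members were all genes of the array's annotation table with a symbol of the form Col, number, a, number, and there were 44 of them. A probe matched 43 of the 44 (all but Col12a1), among 18749 genes with a probe. Of these, 34 collagens were measured well enough to be tested, among 14137 genes tested in all. RNA came from the No. 4 mammary gland of C57/Bl6 females at lactation day 1. The 4 wild-type (WT) dams and the 4 Th-POK knockout (KO) dams were separate animals, 1 per array, and the dams are the replicates of every test. The methods describe the females as age matched. The labels name no promoter or Cre that would limit the deletion to mammary cells, so every cell type of the KO gland, stroma included, came from a knockout animal. RNA was labelled with Cy3 and hybridized to Agilent 4x44K mouse arrays, and a value below is the log2 of the processed spot intensity after quantile normalization between the 8 arrays. A probe's level cannot be set against that of another probe, so comparisons run between dams for the same gene.

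Collagens are proteins of the extracellular matrix in which 3 chains wind into a helix, and most genes of the family encode a single chain. Fibrillar collagens (types I, II, III, V, XI, XXIV and XXVII) form the banded fibrils of connective tissue. Type IV collagen builds the sheet-like network of the basement membrane, on which mammary alveoli rest. FACIT collagens (fibril-associated collagens with interrupted helices, such as types IX, XIV and XVI) sit on the surface of fibrils, type VI forms beaded filaments near cells, and further types span the plasma membrane, anchor the epidermis or line vessels. Th-POK, encoded by Zbtb7b, is also called cKrox, a name it received as a zinc finger protein that binds GC-rich stretches of type I collagen promoters. The collagens were divided here into 11 fibrillar, 6 basement membrane (Col4) and 27 other genes, the last divided further by structure.

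The RefSeq promoter windows (build GRCm38.p6) of the collagens that were called higher in the KO glands, and of Col4a5, the head-to-head neighbour of Col4a6, are shown because Th-POK is known as a factor that binds GC-rich DNA and these genes differed in the same direction. Each is the 250 bases before the annotated start, written 5′ to 3′ on the gene's own strand. Capitals mark matches on either strand to the GC box GGGCGG and to the CCAAT box, the motifs found in these 6 windows. The TATA box (TATAAA) and a pair of SOX cores, spelled ACAAAG or ACAATG, were searched in the same way and had no match in them. The table held no window for Col9a3 or Col1a1.
Col9a1, first start (chr1:24177360-24177609, plus strand): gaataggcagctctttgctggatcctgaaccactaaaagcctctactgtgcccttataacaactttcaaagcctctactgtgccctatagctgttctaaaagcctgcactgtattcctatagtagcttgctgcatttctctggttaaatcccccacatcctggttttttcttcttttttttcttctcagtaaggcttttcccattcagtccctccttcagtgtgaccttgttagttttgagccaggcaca
Col9a1, second start (chr1:24194953-24195202, plus strand): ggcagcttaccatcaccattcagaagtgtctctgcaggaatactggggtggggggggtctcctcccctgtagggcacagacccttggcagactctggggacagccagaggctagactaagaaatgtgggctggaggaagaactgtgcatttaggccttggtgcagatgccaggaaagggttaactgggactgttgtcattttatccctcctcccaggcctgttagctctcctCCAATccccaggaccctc
Col9a2 (chr4:121039316-121039565, plus strand): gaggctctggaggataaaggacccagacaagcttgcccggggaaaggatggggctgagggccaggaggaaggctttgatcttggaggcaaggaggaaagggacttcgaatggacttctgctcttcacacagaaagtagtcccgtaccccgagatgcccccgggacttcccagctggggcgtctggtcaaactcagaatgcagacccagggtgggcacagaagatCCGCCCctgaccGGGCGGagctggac
Col16a1 (chr4:130047590-130047839, plus strand): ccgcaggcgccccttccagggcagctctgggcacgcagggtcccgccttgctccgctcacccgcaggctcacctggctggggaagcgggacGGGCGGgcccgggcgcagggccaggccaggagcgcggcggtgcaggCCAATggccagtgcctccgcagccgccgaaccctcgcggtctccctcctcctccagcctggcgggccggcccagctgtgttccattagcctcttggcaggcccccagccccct
Col4a6 (chrX:141474077-141474326, minus strand): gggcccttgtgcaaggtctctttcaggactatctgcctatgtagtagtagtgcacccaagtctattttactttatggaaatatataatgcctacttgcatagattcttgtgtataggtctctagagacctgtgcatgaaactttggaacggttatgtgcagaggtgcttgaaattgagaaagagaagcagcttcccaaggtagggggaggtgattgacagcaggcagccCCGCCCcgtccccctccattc
Col4a5 (chrX:141475169-141475418, plus strand): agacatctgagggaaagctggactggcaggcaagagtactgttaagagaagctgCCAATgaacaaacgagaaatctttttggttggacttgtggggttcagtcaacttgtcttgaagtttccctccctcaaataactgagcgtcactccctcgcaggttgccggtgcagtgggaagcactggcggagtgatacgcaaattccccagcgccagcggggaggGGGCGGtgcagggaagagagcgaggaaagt
Of the 6 windows, those of Col9a2, Col16a1, Col4a6 and Col4a5 held the GC box, and those of Col16a1, Col4a5 and the second start of Col9a1 held CCAAT, while the first start of Col9a1 held neither. Among all 32851 windows of the same length, 32.7% held the GC box and 33.8% the CCAAT box. In the collagen family, 38 windows of 35 genes were at hand, and 22 of them held the GC box, 13 CCAAT, 5 the TATA box, 4 ACAAAG and 1 ACAATG. The TATA box lay in 12.4%, ACAAAG in 16.5% and ACAATG in 10.7% of all windows. The median GC content was 59.0% in the collagen windows and 52.4% in all windows. A match of such short letters is a description of the window and not a binding site.

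As a check of the labels, Zbtb7b lay between 9.90 and 10.42 on the WT arrays (log2 signal) and between 1.55 and 1.65 on the KO arrays, where no array showed it well above background. Its level was lower by at least 81.5-fold (adjusted p = 5.71e-09, limma with Benjamini-Hochberg adjustment), taking the dimmest detected probe of each KO array as the floor. On each array 66.8% to 75.3% of probes stood clear of background, and precision is limited by how many arrays there were. The WT arrays shared 1 slide and the KO arrays another, so genotype and slide cannot be told apart in any comparison below. A gene was called on an adjusted p under 0.05 in limma over all genes tested. By that rule 16.5% of all genes tested were called, 7.53% as higher and 8.96% as lower in the KO glands.

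Of the 34 collagens tested, 6 were called. These were 17.6% of the collagens, a share near that of all genes, so the number of calls by itself sets the family apart in no way. Higher in the KO glands were 5 (14.7%): Col9a1, Col9a2 and Col9a3, which encode the chains of type IX collagen, Col16a1, which encodes type XVI collagen, and Col4a6, which encodes the α6 chain of type IV. Lower was 1 (2.94%), Col6a4, which encodes an α chain of type VI. Col9a3 alone differed by at least 2-fold. With each array scaled by its 75th percentile in place of quantile normalization, the calls were 4 higher and 3 lower. Col9a1 was lost (adjusted p = 0.0576), and Col25a1 and Col4a1 were called as lower. Of all genes tested, 17.2% were called with that scaling. Without WT dam 2 or KO dam 1, 2 or 3 the calls fell to 3, namely Col9a2, Col9a3 and Col16a1. The share called of all genes tested also fell, to 5.43%, 5.35%, 6.69% and 3.64% in that order. No label states that arrays were paired, but arrays with the same replicate number, 1 to 4, were taken as pairs because their values deviated together. With these assumed pairs as a block 9 collagens were called, 7 higher and 2 lower. The share called of all genes tested rose to 19.5%. In 6 collagens (17.6%) the 4 values of a genotype lay wholly above those of the other, 5 with KO above (Col2a1, Col9a1, Col9a2, Col9a3 and Col16a1) and 1 with KO below (Col25a1), against 24.1% of all genes tested. Among 10 tested fibrillar collagens 0 were called, among 5 basement membrane collagens 1 (20%) and among 19 other collagens 5 (26.3%). Of all genes tested 16.5% were called, so in classes this small these counts set no class apart. Of the 5 calls among the other collagens 4 were FACIT collagens, with the chains of type IX counted singly.

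**Figure D1:**
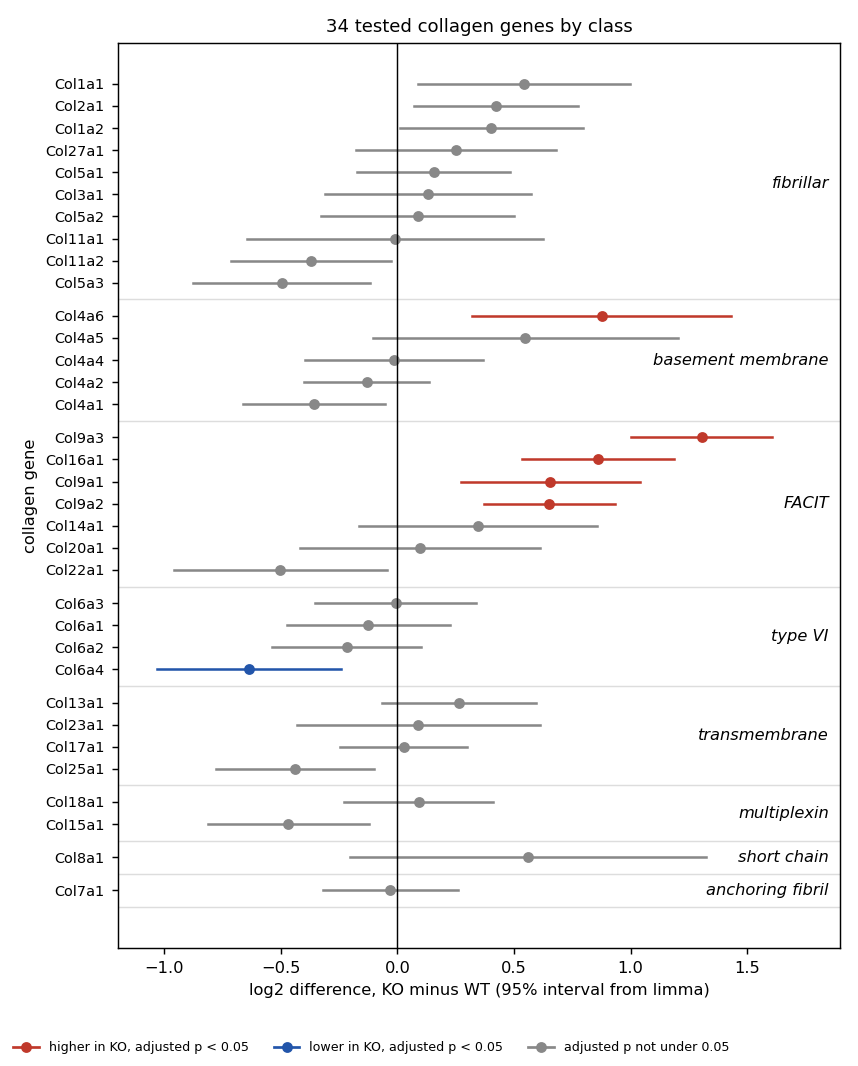
Log2 difference between the KO and WT glands (x axis) of the 34 tested collagen genes (y axis), ordered within structural classes. Points are differences of means over 4 dams a genotype and lines are 95% intervals from limma. The 5 genes called higher lie between 0.65 and 1.30, 4 of them in the FACIT class, and the only gene called lower, Col6a4, lies at -0.64.

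The medians of the classes were close to 0. The median log2 difference (KO minus WT) was 0.14 over the 10 fibrillar genes, -0.02 over the 5 basement membrane genes and 0.09 over the 19 others, against 0.09 over all 34 collagens and -0.02 over all genes tested. The FACIT genes had a median of 0.65 over 7 tested genes, with 6 higher and 1 lower. The 4 tested type VI genes were all lower on average, with a median of -0.17. No test was made of a class, since the members were chosen with earlier results of these data known.

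The mean log2 signal of a class on each array shows the same spread by dam. The mean of the 7 FACIT genes was 8.94, 8.92, 8.81 and 8.87 on the WT arrays and 9.48, 9.48, 9.27 and 9.25 on the KO arrays, so that the KO dams lay above the WT dams. The mean of the 4 type VI genes was 10.72, 10.45, 10.62 and 10.39 on the WT arrays and 10.33, 10.38, 10.15 and 10.33 on the KO arrays, and the KO dams lay just below the lowest WT dam. The fibrillar mean was 11.13 ± 0.13 (SD, n = 4) in WT and 11.25 ± 0.12 (SD, n = 4) in KO glands, and the genotypes overlapped. The basement membrane mean was 11.07 ± 0.21 (SD, n = 4) and 11.26 ± 0.09 (SD, n = 4), also with overlap. These means weight each gene of a class equally and hold the genes called above. The separation of the FACIT and type VI means is therefore not independent of those calls. In type VI the only call was Col6a4, and a second Col6a4 probe differed by 0.27 in the opposite direction. The type VI separation is thus no shift of the class as a whole. Read singly, every uncalled FACIT or type VI gene overlapped between genotypes. In whole glands, fewer cells of a type and less RNA per cell cannot be told apart.

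**Figure D2:**
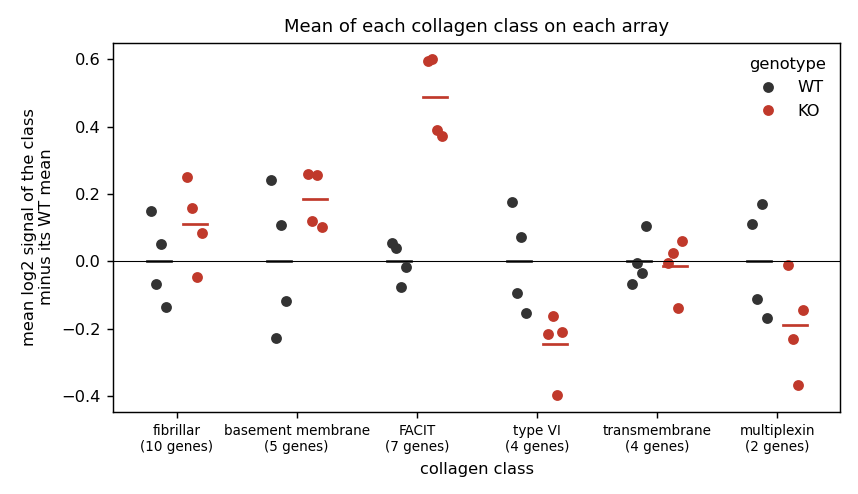
Mean log2 signal of the tested genes of each collagen class on each array (y axis), with the WT mean of the class set to 0. Points are arrays (4 WT, black; 4 KO, red) and short lines are genotype means. FACIT values of the KO arrays lie from 0.37 to 0.60, type VI values from -0.40 to -0.16, and the other classes overlap between genotypes. The type VI mean holds Col6a4, whose probes differ in sign.

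Of the 7 FACIT genes tested 4 were called (57.1%, against 16.5% of all genes), with the chains of type IX collagen counted singly. Type IX collagen is a heterotrimer of the α1(IX), α2(IX) and α3(IX) chains, best known from the surface of type II fibrils in cartilage, and all of its chains were higher in the KO glands. Col9a3 had signals of 7.39, 6.93, 7.30 and 7.28 on the WT arrays and 8.64, 8.43, 8.67 and 8.38 on the KO arrays. The lowest KO value was far above the highest WT value. The difference was 1.30 (standard error 0.13, adjusted p = 0.00256 from limma), or 2.47-fold. Within pairs of the same number the KO array was higher by 1.10 to 1.497. Without overlap any pairing puts the KO array higher, so the direction within pairs adds nothing. Col9a2 had signals of 8.77, 8.62, 8.73 and 8.70 on the WT arrays and 9.14, 9.56, 9.20 and 9.53 on the KO arrays. The WT dams lay within a narrow range and all KO dams above it. The difference of Col9a2 was 0.65 (standard error 0.12, adjusted p = 0.0168 from limma), or 1.57-fold.

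Col9a1 had signals of 13.04, 12.99, 12.53 and 13.07 on the WT arrays and 13.60, 13.85, 13.24 and 13.57 on the KO arrays. The genotypes did not overlap, although the third dam of each genotype was the lowest and the third WT dam stood apart from the other WT dams. The difference of Col9a1 was 0.66 (standard error 0.17, adjusted p = 0.0352 from limma), or 1.58-fold. Col9a2 and Col9a3 were called in 16 of 16 alternative analyses, Col9a1 in 7 of 16, with adjusted p from 0.0202 to 0.0826. That call of Col9a1 was lost when WT dam 2 or 3 or any of the 4 KO dams was left out, while its difference stayed between 0.53 and 0.76. Each type IX gene had 1 probe well above background, so no second probe speaks for or against these values.

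Col16a1 encodes the homotrimeric FACIT collagen XVI, which binds fibrils and integrins. Its signals were 12.41, 12.54, 12.40 and 12.18 on the WT arrays and 13.07, 13.45, 13.01 and 13.45 on the KO arrays. All KO dams lay above all WT dams. The difference was 0.86 (standard error 0.14, adjusted p = 0.0122 from limma), or 1.82-fold, and Col16a1 was called in 16 of 16 alternatives. A second, dimmer Col16a1 probe differed by 0.36 (standard error 0.17), in the same direction and not called (adjusted p = 0.155 over probes).

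The other FACIT collagens tested were not called. Col14a1, whose product binds decorin on interstitial fibrils, differed by 0.35 (95% interval -0.17 to 0.86), with KO dam 1 at 10.62 and the other KO dams from 9.58 to 9.79. Col20a1 differed by 0.10 (-0.42 to 0.61). Col22a1, a collagen of tissue junctions, differed by -0.50 (-0.96 to -0.04, adjusted p = 0.110 from limma) and entered the test through the WT glands only, since it was well above background on 4 WT and 2 KO arrays. Col19a1 was well above background on 2 WT arrays and 0 KO arrays and was not tested, and Col12a1 had no matched probe.

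**Figure D3:**
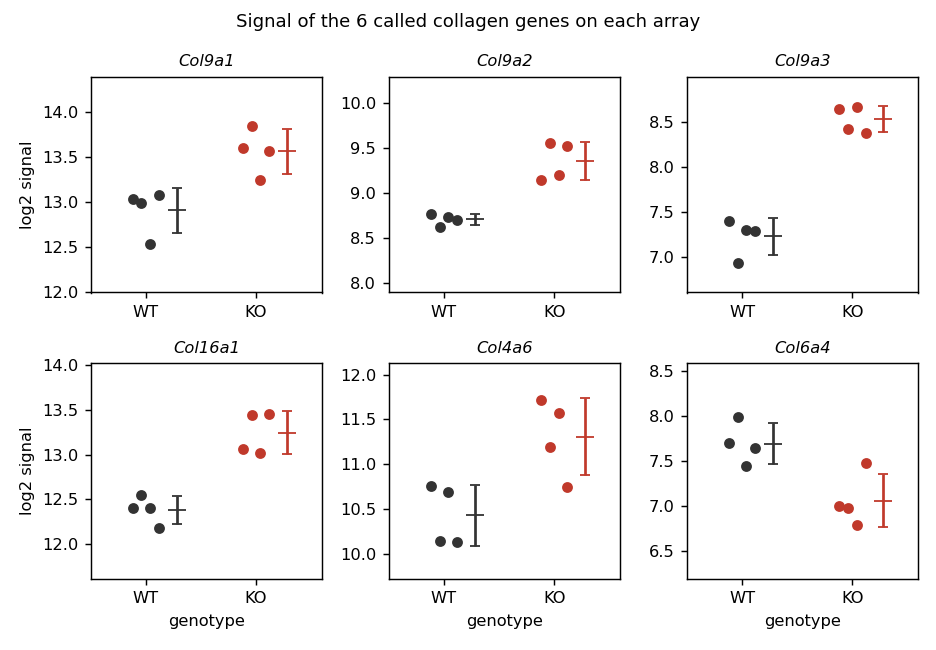
Log2 signal (y axis) of the 6 collagen genes called at an adjusted p under 0.05, on each WT (black) and KO (red) array. Bars are the mean and SD of 4 dams and each panel spans the same range of log2 units. Col9a1, Col9a2, Col9a3 and Col16a1 do not overlap between genotypes, whereas Col4a6 and Col6a4 each have 1 KO dam that reaches the WT range.

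Type IV collagen is built from 6 chains whose genes lie in head-to-head pairs. Col4a1 and Col4a2 encode the chains found in nearly all basement membranes, and their annotated starts lie 21 bases apart on opposite strands. Col4a6 and Col4a5, whose starts lie 1343 bases apart, encode chains of a more restricted network. Col4a6 had signals of 10.76, 10.15, 10.69 and 10.13 on the WT arrays and 11.72, 11.19, 11.57 and 10.75 on the KO arrays. The fourth KO dam lay just under the first WT dam and the other KO dams lay above all WT dams. The difference of Col4a6 was 0.88 (standard error 0.24, adjusted p = 0.0433 from limma), or 1.84-fold. Among arrays with the same number the KO array was higher by 0.62 to 1.04 in 4 of 4 pairs. The call was made in 8 of 16 alternatives (adjusted p 0.0132 to 0.116) and was lost without WT dam 2, 3 or 4 or KO dam 1, 2 or 3. A second Col4a6 probe differed by 0.92 (adjusted p = 0.0344 over probes) and the third by 0.12 (adjusted p = 0.542 over probes).

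Its neighbour Col4a5 had signals of 9.27, 8.28, 9.19 and 8.33 on the WT arrays and 9.65, 9.01, 9.63 and 8.96 on the KO arrays. Within each genotype dams 1 and 3 were high and dams 2 and 4 low, as for Col4a6, and the genotypes overlapped. The difference of Col4a5 was 0.55 (95% interval -0.11 to 1.202, adjusted p = 0.202 from limma). With the replicate number as a block its adjusted p was 0.0285, and the KO array was higher by 0.38 to 0.74 in 4 of 4 pairs.

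The chains of the more widespread network were not called. Col4a1 had signals of 13.42, 12.92, 13.15 and 13.15 on the WT arrays and 12.73, 12.64, 12.87 and 12.97 on the KO arrays. The genotypes overlapped at 1 dam each, and the KO array was lower in 4 of 4 pairs. The difference of Col4a1 was -0.36 (95% interval -0.66 to -0.05, adjusted p = 0.0931 from limma), and with 75th percentile scaling its adjusted p was 0.0434. Col4a2 had signals of 12.63, 12.23, 12.57 and 12.54 on the WT arrays and 12.33, 12.28, 12.33 and 12.50 on the KO arrays, which lay within the WT range. The difference of Col4a2 was -0.13 (-0.40 to 0.14). Col4a4, a chain of the kidney and lung network, had signals of 10.47, 10.65, 10.30 and 10.62 on the WT arrays and 10.22, 10.83, 10.24 and 10.68 on the KO arrays, a difference of -0.02 (-0.40 to 0.37). Its partner Col4a3 was well above background on 0 WT arrays and 1 KO array and was not tested.

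Fibrillar collagens make up most of the collagen of the mammary stroma, and 0 of 10 tested were called, against 16.5% of all genes tested. At an unadjusted p under 0.05, 5 of the 10 passed, as did 36.3% of all genes tested. The 95% intervals of all 10 lay within 1 log2 unit of 0, that is within 2-fold. Col1a1, the α1 chain of type I collagen, had signals of 14.29, 14.01, 14.14 and 13.77 on the WT arrays and 15.10, 14.61, 14.46 and 14.21 on the KO arrays. The fourth KO dam lay within the WT range and the others above it. The difference of Col1a1 was 0.54 (95% interval 0.09 to 1.00, adjusted p = 0.0893 from limma) and, blocked on the replicate number, its adjusted p was 0.0342, higher in 4 of 4 pairs. Its other probes differed in the same direction and were not called, by 0.45 (adjusted p = 0.141 over probes) and 0.21 (standard error 0.36, adjusted p = 0.706 over probes). On the last of these, KO dams 2 and 3 lay below the WT dams of the same number (8.92 against 9.13 and 8.88 against 9.55).

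Col1a2, the α2 chain, had signals of 16.26, 16.20, 16.41 and 15.84 on the WT arrays and 16.91, 16.70, 16.32 and 16.39 on the KO arrays. The KO values began inside the WT range, and the difference was 0.40 (95% interval 0.01 to 0.80, adjusted p = 0.130 from limma). Col3a1, the chain of type III collagen, which mixes with type I in soft tissue, had signals of 15.77, 15.35, 15.81 and 15.39 on the WT arrays and 16.17, 15.78, 15.47 and 15.42 on the KO arrays. Apart from the first KO dam these values interleaved, and the difference was 0.13 (-0.31 to 0.57).

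Type V collagen sets the width of type I fibrils from inside them. Col5a1 had signals of 11.15, 11.13, 11.17 and 10.68 on the WT arrays and 11.39, 11.15, 11.004 and 11.21 on the KO arrays, a difference of 0.15 (95% interval -0.17 to 0.48). The fourth WT dam stood apart below the other WT dams. Col5a2 had signals of 11.14, 10.54, 11.08 and 10.74 on the WT arrays and 11.36, 10.82, 10.81 and 10.85 on the KO arrays, a difference of 0.09 (-0.33 to 0.50). Here the first KO dam stood apart above the other KO dams. Col5a3, a more restricted chain, had a difference of the opposite sign, with signals of 12.26, 11.70, 12.20 and 11.85 on the WT arrays and 11.40, 11.37, 11.84 and 11.41 on the KO arrays. The third KO dam stood apart and lay in the WT range, while the other KO dams lay below it. The difference of Col5a3 was -0.50 (-0.88 to -0.12, adjusted p = 0.0713 from limma) and, blocked on the replicate number, its adjusted p was 0.0473.

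Of the remaining fibrillar genes, Col2a1, the chain of cartilage fibrils, differed by 0.42 (95% interval 0.07 to 0.78, adjusted p = 0.0894 from limma). Its KO values of 11.39 to 12.04 lay above its WT values of 11.06 to 11.37. A second, dimmer Col2a1 probe differed by -0.12 (adjusted p = 0.546 over probes). Col11a1 and Col11a2, the chains that join type II fibrils in cartilage, differed by -0.01 (-0.64 to 0.62) and -0.37 (-0.71 to -0.03, adjusted p = 0.116 from limma). A second, dimmer Col11a2 probe differed by -0.71 (adjusted p = 0.0180 over probes), with KO signals of 3.83 to 4.201 all below its WT signals of 4.49 to 4.98. Col11a2 was called as lower with the mean of both probes (-0.54, adjusted p = 0.0240) and without WT dam 3 (-0.50, adjusted p = 0.0473), and under 0 of the other 14 alternatives. Col27a1 differed by 0.25 (-0.18 to 0.68). Col24a1 was well above background on 1 WT array and 0 KO arrays and was not tested.

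Type VI collagen filaments are assembled from an α1 chain, an α2 chain and either α3 or one of several α3 paralogs, among them the α4 chain. Col6a4 had signals of 7.70, 7.99, 7.44 and 7.65 on the WT arrays and 6.998, 6.97, 6.79 and 7.47 on the KO arrays. The fourth KO dam lay inside the WT range and the others below it. The difference was -0.64 (standard error 0.17, adjusted p = 0.0408 from limma), or 1.55-fold lower in the KO glands. A second Col6a4 probe differed by 0.27 in the opposite direction (adjusted p = 0.272 over probes), and the mean of both probes differed by -0.19 (adjusted p = 0.254). The call was made in 5 of 16 alternatives and was lost when any array other than KO dam 4 was left out.

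The usual type VI chains were not called, and their intervals included 0. Col6a1 had signals of 11.70, 11.13, 11.57 and 11.20 on the WT arrays and 11.33, 11.43, 11.25 and 11.10 on the KO arrays, a difference of -0.12 (95% interval -0.47 to 0.22). Col6a2 had signals of 10.77, 10.25, 10.76 and 10.47 on the WT arrays and 10.35, 10.37, 10.19 and 10.46 on the KO arrays, a difference of -0.22 (-0.54 to 0.10). In both genes the WT dams spread more widely than the KO dams and the genotypes overlapped. Col6a3 had signals of 12.71, 12.44, 12.69 and 12.25 on the WT arrays and 12.63, 12.76, 12.36 and 12.30 on the KO arrays, a difference of -0.01 (-0.35 to 0.34). Col6a5 and Col6a6 were well above background on 0 arrays of either genotype.

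Of the 8 tested collagens outside these classes, 0 were called, against 16.5% of all genes tested. Col15a1 and Col18a1, the multiplexins of vessel and epithelial basement membranes, differed by -0.47 (95% interval -0.81 to -0.12, adjusted p = 0.0639 from limma) and 0.09 (-0.23 to 0.41). The transmembrane collagens ranged from -0.44 (Col25a1, adjusted p = 0.0715 from limma) to 0.26 (Col13a1). Col17a1, which anchors basal epithelial cells in hemidesmosomes, differed by 0.03 (-0.25 to 0.30), and Col7a1, the chain of anchoring fibrils, by -0.03 (-0.32 to 0.26). Col8a1, a short-chain collagen of vessels, had the widest spread between dams of a genotype, with a difference of 0.56 (-0.20 to 1.32). The genes Col8a2, Col10a1, Col26a1 and Col28a1 were well above background on too few arrays to be tested, with at most 3 arrays of a genotype.

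Probes of the same gene gave a check of these values that does not depend on the choice of probe. More than 1 probe was well above background for 19 collagens, and in 15 of them all probes differed in the same direction. In the other 4, Col2a1, Col3a1, Col5a1 and Col6a4, a dimmer probe had the opposite sign. Only in Col6a4 among these was the brighter probe called.

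**Figure D4:**
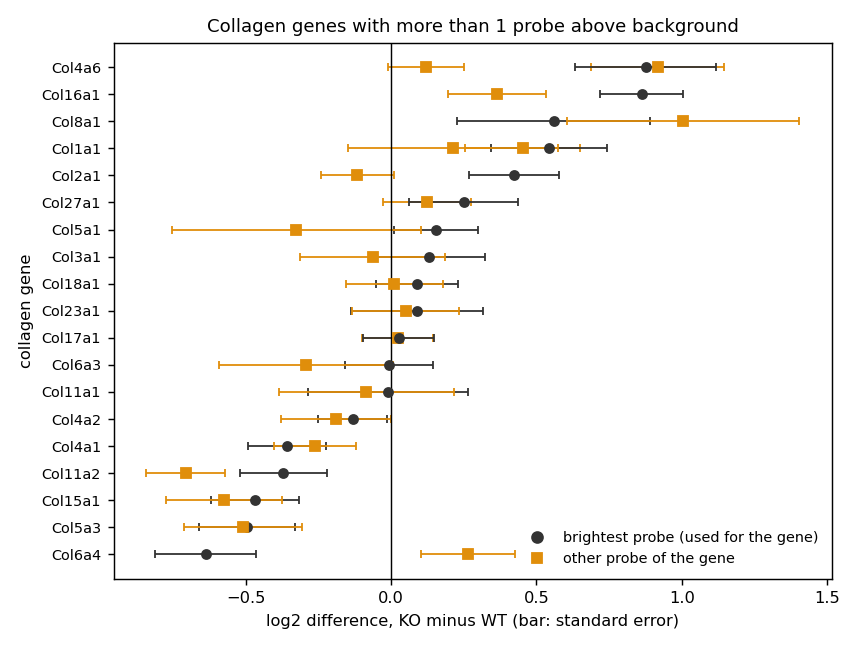
Log2 difference between the KO and WT glands (x axis) of each probe well above background, for the 19 collagen genes with more than 1 such probe (y axis). Circles are the brightest probe of a gene, which stands for it in the tests, squares are its other probes, and bars are standard errors from limma. In 15 genes all probes lie on the same side of 0, and Col6a4 has its probes at -0.64 and 0.27.

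Chains that assemble into a common molecule were compared pair by pair, by asking whether their differences between genotypes were unequal. For 14 pairs of chains, a choice made after values had been seen, the log2 ratio of both chains on each array was set against genotype in a two-sided exact permutation test (70 relabelings), which cannot give a p under 0.0286. That smallest p was reached by 3 pairs. The change of Col4a1 minus that of Col4a2 was -0.23, that of Col5a2 minus that of Col5a3 was 0.58, and that of Col9a2 minus that of Col9a3 was -0.65. After Benjamini-Hochberg adjustment over the 14 pairs the exact permutation p of each was 0.133, and 0 pairs passed. More than 8 pairs would have had to reach the smallest p for any to fall under 0.05, so the adjusted test could hardly pass here. The changes of Col4a6 and Col4a5 differed by 0.33 (exact permutation p = 0.0857) and those of Col1a1 and Col1a2 by 0.14 (exact permutation p = 0.257).

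Collagen chains are hydroxylated, folded, exported, trimmed and cross-linked by a dedicated set of enzymes and chaperones. Of 33 genes on that list 27 were tested, and 1 was higher and 0 were lower, with a median difference of -0.0045 on the log2 scale, against 16.5% called and a median of -0.02 over all genes. The gene that rose was Adamts3, a protease that removes the amino-terminal propeptide of fibrillar procollagens. It had signals of 5.74, 4.70, 5.71 and 5.98 on the WT arrays and 6.80, 6.20, 7.12 and 6.92 on the KO arrays, a difference of 1.23 (standard error 0.30, adjusted p = 0.0314 from limma). The KO dams lay above the WT dams, but the call was lost without WT dam 2 or 3 or KO dam 1, 3 or 4. Next by p were Mia3, which loads procollagen into transport carriers (-0.36, adjusted p = 0.0540), Fkbp14, a chaperone of the endoplasmic reticulum (-0.50, adjusted p = 0.0543), and Bmp1, which removes the carboxy-terminal propeptide (0.53, adjusted p = 0.0634, or 0.0250 with the block), by limma with Benjamini-Hochberg adjustment.

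Proteins that bind or space collagen fibrils were all tested, 20 of 20, with 1 higher, 1 lower and a median difference of 0.14. Of all genes tested 7.53% were called higher and 8.96% lower, so these counts set the list apart in no way. Decorin and biglycan, related small proteoglycans of the fibril surface, went in opposite directions. Dcn had signals of 15.46, 15.39, 15.60 and 15.65 on the WT arrays and 16.16, 16.07, 16.04 and 15.82 on the KO arrays, a difference of 0.50 (standard error 0.11, adjusted p = 0.0257 from limma). Bgn had signals of 9.47, 9.68, 9.62 and 9.81 on the WT arrays and 9.07, 8.81, 8.76 and 9.15 on the KO arrays, a difference of -0.70 (standard error 0.13, adjusted p = 0.0151 from limma). Neither gene overlapped between genotypes, which held for 24.1% of all genes tested. The call of Dcn was lost with 75th percentile scaling and without WT dam 2 or 3 or KO dam 1, 2 or 3, and that of Bgn without KO dam 3 (adjusted p = 0.0505). Tnxb (tenascin X) differed by 0.52 (adjusted p = 0.0639 from limma, or 0.0298 with the block) and Lum (lumican) by 0.57 (adjusted p = 0.0734).

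Laminins, nidogens, perlecan and agrin share the basement membrane with type IV collagen. Of 16 genes 15 were tested, with 3 higher, 1 lower and a median difference of 0.03. Lama5, a laminin chain of epithelial basement membranes, differed by 0.59 (standard error 0.14, adjusted p = 0.0274 from limma), Agrn by 0.81 (standard error 0.21, adjusted p = 0.0372) and Lamb2 by 0.42 (standard error 0.12, adjusted p = 0.0409). Nid2, a nidogen that links laminin to type IV collagen, had signals of 9.34, 9.87, 9.57 and 9.81 on the WT arrays and 8.38, 8.89, 8.34 and 9.20 on the KO arrays. All KO dams lay below all WT dams, a difference of -0.95 (standard error 0.22, adjusted p = 0.0265 from limma). Each of these 4 calls was lost without WT dam 2 or 3 or KO dam 1 or 3, and some of them without other dams as well. Of 10 collagen receptors 7 were tested and 0 were called, with a median of 0.28. The smallest p among them belonged to Ddr2, a receptor kinase for fibrillar collagen, whose KO values of 10.61 to 11.27 lay above its WT values of 10.20 to 10.44 (0.50, adjusted p = 0.0612 from limma). Itga2, the α2 integrin, was well above background on 2 WT and 4 KO arrays and so entered the test through the KO glands only. It differed by 0.99 (adjusted p = 0.115 from limma, or 0.0132 with the block), and that way of entry favours a higher KO value. Itga11 differed by 0.48 (adjusted p = 0.128) and Itgb1 by 0.28 (adjusted p = 0.255). Over these 4 lists 7 of 69 tested genes were called (10.1%), against 16.5% of all genes. With the replicate number as a block 13 were called (18.8%), against 19.5% of all genes.

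Because type IX and type II collagen are best known from cartilage, 10 further cartilage genes were looked up, a list chosen after the collagen values had been seen. Of the 6 tested, 3 were higher and 0 lower, against 7.53% higher and 8.96% lower of all genes, and as a list chosen on seen values it lends these counts no support. Sox9, which activates cartilage collagen genes and is also active in mammary epithelium, had signals of 11.56, 10.94, 11.20 and 10.94 on the WT arrays and 12.02, 12.08, 12.34 and 11.74 on the KO arrays. The KO dams lay above the WT dams, a difference of 0.89 (standard error 0.18, adjusted p = 0.0196 from limma) that lost its call without WT dam 2 or KO dam 1 or 3. Snorc, a membrane proteoglycan of chondrocytes, had signals of 7.67, 6.08, 7.25 and 5.68 on the WT arrays and 9.52, 8.75, 9.16 and 7.88 on the KO arrays, a difference of 2.16 (standard error 0.50, adjusted p = 0.0268 from limma) that was not called without WT dam 2 or KO dam 1, 2 or 3. Cnmd (chondromodulin) had signals of 6.54, 2.996, 5.47 and 4.60 on the WT arrays and 7.41, 6.45, 8.05 and 7.91 on the KO arrays. It was well above background on 3 WT and 4 KO arrays and so entered the test through the KO glands only. The genotypes overlapped for Cnmd, and its difference of 2.55 (standard error 0.70, adjusted p = 0.0417 from limma) lost its call in 9 of 15 alternatives, among them leaving out any array but WT dam 1.

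Other cartilage genes did not share that direction. Acan, the aggregating proteoglycan of cartilage, differed by -0.84 (adjusted p = 0.0804 from limma) and Chad (chondroadherin) by -0.49 (adjusted p = 0.0707). Matn1, Matn3, Hapln1 and Ihh were not well above background on all arrays of either genotype. The summed level of the list was 11.38 to 11.86 on the WT arrays and 12.09 to 12.64 on the KO arrays in log2 units, so the genotypes did not overlap. Sox9, the brightest tested gene of the list, is part of that sum. Without it the summed level was 9.44 to 9.76 on the WT arrays and 9.84 to 10.27 on the KO arrays. Snorc and Cnmd, also called higher, remain in the latter sum, while Acan, Chad and Cytl1 (-0.29, not called) were lower on average. Both sums hold called genes and do not speak for the list as a whole. The part of these genes in the values of the type IX genes was not tested.

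**Figure D5:**
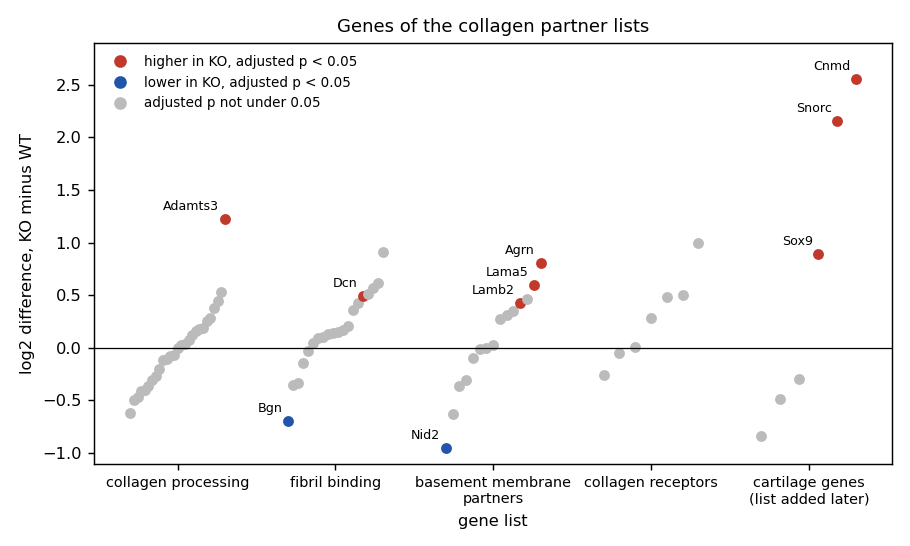
Log2 difference between the KO and WT glands (y axis) of every tested gene of the 4 collagen partner lists and of the cartilage list (x axis), sorted within each list. Coloured and named points passed an adjusted p under 0.05 in limma, and grey points did not. In the 4 partner lists 5 genes were higher and 2 lower, and in the cartilage list Sox9, Snorc and Cnmd were higher.

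Markers of the cells that make collagen were read beside these values. Over all genes tested 7.53% were called higher and 8.96% lower, so a single call in a short list is no finding about its cell type. Fibroblast markers, of which 8 of 10 were tested, had 0 higher and 1 lower, Gli1, which was well above background on 4 WT and 3 KO arrays and so entered through the WT glands only, with Mfap5 and Tcf21 not well above background, and their summed level overlapped between genotypes, at 13.63 to 14.28 on the WT arrays and 13.95 to 14.51 on the KO arrays. Endothelial markers (10 of 10 tested) and pericyte markers (7 of 7) had 0 calls, and myoepithelial markers (9 of 9) had 1 lower (Krt17). All 3 lists overlapped between genotypes in their summed level. Luminal epithelial markers, which define the lactating gland, were all tested, with 3 of 8 higher (Krt18, Epcam and Cdh1). The rest were not called and went both ways: Krt8 (0.46), Krt19 (0.26), Csn2 (0.01), Elf5 (-0.35) and Lalba (-0.45). The summed level of the luminal list was 18.919 to 19.017 on the WT arrays and 19.021 to 19.133 on the KO arrays. These ranges did not overlap but nearly touched. Adipocyte markers had 1 of 8 higher (Plin1), macrophage markers 0 of 7 called, lymphocyte markers 1 of 8 lower (Cd3e) and muscle markers 1 of 4 lower (Tnnt3), and each of these lists overlapped in its summed level. The part of any of these cell types in the collagen values was not tested.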

How the data were processed

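Total RNA of No. 4 mammary glands from 4 WT and 4 KO dams was profiled, 1 dam per one-colour array. The authors deposited Agilent Feature Extraction 10.7 output, whose processed intensity is background-subtracted within each array, and a table of log2 values that the authors had quantile-normalized in GeneSpring (correlation with the scanner values above 0.99 on each array, so its scale is log2). The latter served as an alternative. No column belonged to other samples.

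Here, control and outlier spots (64 to 100 per array) were left out, and log2 intensities were quantile-normalized and fitted with limma 3.58.1 in R 4.3.3, with Benjamini-Hochberg adjustment over 14137 genes. Probes were named through their accession (27479 of 41174 probes, 18749 symbols). A probe entered if well above background on all 4 arrays of a genotype, and the brightest entering probe stood for its gene. Methods were tested on simulated data. The array was designed on mm9 and the gene table is of GRCm38.p6, so promoter positions are those of GRCm38.p6.

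The collagens, their classes and the lists were chosen with earlier results of these data known. Values on each array are given for called collagens and for types I, III, IV, V and VI, and for up to 4 genes of smallest p per partner list values are given. Cartilage genes and chain pairs were added after values had been seen. Same-numbered arrays deviated together (r = 0.16 to 0.30, each genotype centred on its own mean), so the numbers were taken as pairs. The mean of -0.08 for other numbers follows largely from that centring and is no separate evidence of pairing. No label states a pairing, so it rests on the same values to which the block was fitted. What same-numbered dams had in common is not given in the sources used here. Alternatives were the replicate block, 75th percentile scaling, normexp background correction (on the median signal, chosen after seeing the data), the authors' table, no filter or a stricter one, the mean of probes, the methods' t-test and leaving out each array. A further marker list is not reported here.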

Additional observations from a re-analysis of the deposited data

Results flagged for a closer look

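In the values of the collagens and of the listed genes looked at, 106 groups of 4 dams were examined for 1 dam far from the other 3, and 5 were found, where chance gives about 1 in 20 groups. Col5a1 stood at 10.7 (log2 signal) in WT dam 4, with the other WT dams at 11.13 to 11.17. Col5a2 stood at 11.4 in KO dam 1, with the other KO dams at 10.81 to 10.85, and Col5a3 at 11.8 in KO dam 3, with the others at 11.37 to 11.41. Col20a1 stood at 5.92 in KO dam 4, against 6.84 to 6.88. Col9a1 stood at 12.5 in WT dam 3, against 12.99 to 13.07, and without that dam its difference was 0.53 and was not called (adjusted p = 0.0727, limma).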

How the results depend on the processing

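Col9a2, Col9a3 and Col16a1 were called under all 16 alternatives, Col4a6 under 8, Col9a1 under 7 and Col6a4 under 5, and these 6 kept their direction under all 16. The number of collagens called was 6, and 3 without a filter on dim probes or by the methods' t-test (3 higher and 0 lower in both). With 75th percentile scaling 4 were higher and 3 lower. With the replicate block, 7 were higher and 2 lower, adding Col1a1, Col4a5 and Col5a3. Leaving out each array in turn gave 3 to 6 collagens called, 3 to 5 of them higher and 0 to 1 lower, and the calls fell to 3 without WT dam 2 or KO dam 1, 2 or 3. Over all genes tested, 2331 were called, 1389 by the methods' t-test and 515 to 3070 with an array left out (515 to 983 without WT dam 2 or 3 or KO dam 1, 2 or 3). Partner genes called numbered 7, 13 with the replicate block, 3 by the methods' t-test and 0 to 12 with an array left out (12 without WT dam 1 and 0 to 4 without WT dam 2, 3 or 4 or KO dam 1, 2 or 3). The median of the basement membrane class was 0.27 without a filter, where Col4a3 enters, and that of the other collagens was 0.0049 to 0.095 with an array left out. Values that turned direction were near 0 and never called: Col5a1 was -0.085 with the mean of its probes and Col6a3 was 0.0037 with normexp and 0.0032 in the authors' table. With an array left out the range was -0.13 to 0.076 for Col4a4, -0.022 to 0.23 for Col3a1, -0.048 to 0.17 for Col5a2 and -0.097 to 0.063 for Col6a3. The log2 difference of Zbtb7b was -4.25 with normexp and otherwise -8.67 to -8.50. The replicate block changed no other call of a collagen, and among the named partner genes it added Tnxb, Itga2 and Bmp1. Of these Itga2 had entered the test through the KO glands only. With 4 arrays a genotype, a gene of small difference or low signal may be missed.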
